A study of Mus musculus with 24 samples.

Results

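The genes described here are 10 metalloprotease and inhibitor genes of mouse macrophages: the aggrecanase gene Adamts4, the 7 matrix metalloprotease genes Mmp8, Mmp9, Mmp10, Mmp12, Mmp13, Mmp14 and Mmp19, and the tissue inhibitor genes Timp2 and Timp3. They were picked by symbol in the deposited table of 54532 genes, where each symbol stood on 1 row. All 10 had at least 1 read, and 9 passed the filter on low counts that left 14261 genes for testing. Timp3 did not pass, with 0 to 4 reads per library.

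RNA of bone marrow-derived macrophages, adherent phagocytes grown from marrow precursors with the growth factor CSF-1, was sequenced in 24 libraries. Cells came from tibial marrow of C57BL/6 mice aged 2 to 3 months, were kept without serum for about 16 hours, and were then given TGF-β1 at 10 ng/ml for 4 hours or left untreated. The genotypes were Smad2 fl/fl with LyzM-Cre (MyS2KO) and Smad2 fl/fl without it (Smad2fl), and Smad3 fl/fl with LyzM-Cre (MyS3KO) and Smad3 fl/fl without it (Smad3fl). Each genotype had 3 libraries with TGF-β1 and 3 untreated. LyzM-Cre is driven from Lyz2, a lysozyme gene active in macrophages and neutrophils, and the floxed alleles without Cre served as the controls of each line. The labels do not say whether the 3 libraries of a group came from separate animals, and the protocol speaks of 8 cDNA libraries, so p-values measure only the spread between libraries, which may be technical. Levels of libraries are given below in the order of the library numbers 1, 2 and 3.

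Libraries held 16.9 to 24.9 M counted reads (M, 1e6). All 8 macrophage markers had reads in every group, at a summed 15100 to 31000 CPM (reads per 1e6, with library totals scaled by TMM), while 8 fibroblast and stromal markers summed to 2.97 CPM at most. Smad3 RNA was lower in MyS3KO than in Smad3fl, by 0.63 ± 0.13 on the log2 scale with TGF-β1 (adjusted p = 0.00208) and by 1.21 ± 0.14 untreated (adjusted p = 6.91e-06). Smad2 RNA did not pass the test in MyS2KO against Smad2fl, with log2 differences of 0.09 ± 0.12 with TGF-β1 (adjusted p = 0.891) and -0.06 ± 0.12 untreated (adjusted p = 0.924). Gene-level counts cannot show deleted exons, so the deletion itself cannot be read from them. These libraries are therefore called the libraries labelled MyS2KO. Lyz2 was called in none of these knockout comparisons (adjusted p of 0.367 to 0.922). Its log2 differences were -0.96 ± 0.37 with TGF-β1 and -0.89 ± 0.37 untreated in MyS2KO against Smad2fl. In MyS3KO against Smad3fl they were -0.06 ± 0.37 and -0.48 ± 0.37. In the labelled MyS2KO, Lyz2 averaged 4218 CPM with TGF-β1 and 6075 untreated, against 8197 and 11230 in Smad2fl. In the 6 Smad3fl libraries, transcripts of ribosomal proteins took 0.9% to 1.49% of reads, against 1.61% to 2.44% in the other 18, and the part of this difference in the results below was not tested.

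Matrix metalloproteases are secreted or membrane-bound zinc enzymes made as inactive proforms, which other proteases, among them plasmin and furin-like convertases, turn into active enzymes. TIMPs bind the active site and block it. Macrophages use these enzymes to clear and remodel collagen, elastin and proteoglycans in injured tissue, and in many cell types TGF-β lowers the transcription of several of them through SMAD proteins and AP-1, the Fos and Jun transcription factor complex that binds the promoters of many inducible Mmp genes. Transcript levels say nothing of how much enzyme is active.

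Mmp13, Mmp12, Mmp10 and Mmp8 lie in 1 cluster on chromosome 9 (GRCm38), all on the plus strand. Mmp13 (chr9:7272514-7283331) encodes a collagenase, Mmp12 (chr9:7344381-7369499) the macrophage elastase, Mmp10 (chr9:7502352-7510240) the proteinase stromelysin-2 and Mmp8 (chr9:7558456-7568485) the collagenase typical of neutrophils. The other members are scattered: Adamts4 (chr1:171250421-171260637, plus strand), which cleaves aggrecan and versican, Mmp9 (chr2:164940780-164955850, plus strand), a gelatinase, Mmp14 (chr14:54431612-54445364, plus strand), a membrane-bound collagenase that activates pro-MMP2 with the help of TIMP2, Mmp19 (chr10:128790910-128800824, plus strand), a protease of basement membrane proteins, Timp2 (chr11:118301069-118355740, minus strand) and Timp3 (chr10:86300372-86349506, plus strand). No member shares exon bases with a gene on its own strand. Exons on the opposite strand overlap Mmp12 over 157 bases (Mmp1b), Mmp19 over 1001 (Gm47093 and Tmem198b) and Timp3 over 1733 (Syn3), and the strand setting of the counting is not given in the sources used here. Of the 50-base windows of Mmp10 transcripts, 8.37% also occur in Mmp3, so a part of its reads could not be told from that gene, which had 14 reads in all 24 libraries.

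The 250 bases before the RefSeq start (GRCm38.p6, plus strand) are shown for the chromosome 9 genes whose window held an AP-1 motif, because these genes are compared with each other below. Capitals mark the motif TGANTCA, searched on both strands.
Mmp13, chr9:7272264-7272513: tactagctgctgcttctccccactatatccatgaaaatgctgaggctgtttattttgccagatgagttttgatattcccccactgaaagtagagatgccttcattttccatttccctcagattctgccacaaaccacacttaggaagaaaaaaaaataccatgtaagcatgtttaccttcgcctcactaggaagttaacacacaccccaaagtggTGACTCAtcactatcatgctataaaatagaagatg
Mmp12, second start, chr9:7347124-7347373: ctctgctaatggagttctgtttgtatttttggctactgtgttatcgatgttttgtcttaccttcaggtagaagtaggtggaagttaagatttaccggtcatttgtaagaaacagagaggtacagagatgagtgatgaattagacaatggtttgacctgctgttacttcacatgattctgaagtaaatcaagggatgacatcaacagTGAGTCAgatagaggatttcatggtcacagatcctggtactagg
Mmp10, chr9:7502092-7502341: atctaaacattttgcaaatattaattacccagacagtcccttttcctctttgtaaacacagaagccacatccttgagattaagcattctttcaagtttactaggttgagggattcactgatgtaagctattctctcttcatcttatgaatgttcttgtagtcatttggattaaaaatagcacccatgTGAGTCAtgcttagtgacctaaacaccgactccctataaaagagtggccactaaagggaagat

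The motif begins 35 bases before the start in Mmp13, 44 in Mmp12 (second start) and 63 in Mmp10. It was found in 6.75% of the 32851 promoters of the RefSeq table at this length. The windows of Mmp8 (chr9:7558179-7558428), Mmp14, Timp2, Timp3 and the first Mmp12 start do not hold these letters. The SMAD motif CAGAC stood in the Mmp8 and Mmp10 windows and in 42.2% of all promoters, the ETS motif GGAAGT in the windows of Mmp8, Mmp13 and both Mmp12 starts and in 19.7% of all, and the letters TTGGTGA, the core of an element through which TGF-β is known to lower stromelysin transcription in rat cells, in no member's window and in 3.26% of all. No window of Adamts4, Mmp9 or Mmp19 was used here.

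Adamts4 was the member with the widest range of levels, 11.3 to 538 CPM. With TGF-β1, Adamts4 lay at 22.6, 23.2 and 25.8 CPM in the libraries labelled MyS2KO, at 13.9, 11.3 and 13.6 in Smad2fl, at 33.4, 22.8 and 23.6 in MyS3KO and at 191, 159 and 115 in Smad3fl. Untreated, it lay at 40.1, 23.8 and 22.8 CPM in the libraries labelled MyS2KO, at 22.4, 34.7 and 45.3 in Smad2fl, at 83.6, 53.9 and 47.0 in MyS3KO and at 538, 512 and 294 in Smad3fl. The 6 Smad3fl libraries were above all others, and the untreated ones above those with TGF-β1. In the order of group means, untreated Smad3fl (448 ± 134, SD, n = 3), Smad3fl with TGF-β1 (155 ± 38.1) and untreated MyS3KO (61.5 ± 19.5) did not overlap with the group below them. Neighbours among the next 4 groups, with means of 34.2 to 23.9 CPM, did overlap, and Smad2fl with TGF-β1 lay alone at the bottom (12.9 ± 1.4).

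Mmp13 followed the same split between Smad3fl and the rest, with less even libraries. It was at 72.7, 45.4 and 31.7 CPM in Smad3fl with TGF-β1 and at 105, 110 and 25.3 in untreated Smad3fl. All other libraries held 7.84 to 31.8 CPM. Library 3 of Smad3fl thus lay within the range of the other genotypes both with TGF-β1 and untreated, below MyS3KO untreated library 1 at 31.8 CPM.

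Mmp12 separated the lines rather than the knockouts. It lay between 8.11 and 24.3 CPM in the Smad3 line and between 3.34 and 7.78 CPM in the Smad2 line, with no overlap. Mmp19 did the reverse, at 9.96 to 15.0 CPM in the Smad3 line and 16.6 to 23.9 CPM in the Smad2 line. The share of all genes that part the lines in this way was not counted, so the split does not set these genes apart. Mmp10 was near 0 outside Smad3fl, with 0.318 CPM at most. It was at 2.81, 0.62 and 0.34 CPM in Smad3fl with TGF-β1 and at 4.67, 2.79 and 0.28 in untreated Smad3fl. Library 3 of each Smad3fl group held only 6 reads. Its level was above every MyS3KO library, at 0.119 CPM at most, and close to untreated Smad2fl library 2, at 0.318 CPM. Mmp10 passed the filter on low counts only through the Smad3fl libraries, so a difference from them was built into its being tested.

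Mmp9 was highest in library 1 of Smad3fl, at 70.2, 32.4 and 18.8 CPM with TGF-β1 and at 107, 36.8 and 26.2 untreated, and it lay between 11.5 and 40.2 CPM elsewhere. Mmp8 kept to 3.43 to 13.5 CPM in all libraries, and Mmp14 to 9.28 to 22.2 CPM. Timp2 was the most abundant inhibitor transcript, at 68.5, 54.3 and 57.1 CPM in Smad3fl with TGF-β1 and at 49.2, 33.8 and 81.6 in untreated Smad3fl, against 89.5 to 198 CPM in the other 18 libraries. Those ranges do not overlap. For this split, as for that of Adamts4, the share of all genes that part Smad3fl from the rest was not counted. The highest group mean was in a Smad3fl group for Adamts4, Mmp8, Mmp9, Mmp10, Mmp12 and Mmp13, and in another group for Mmp14, Mmp19 and Timp2. Timp3, at under 0.1 CPM in every group, was too low to rank. The share of all genes with their highest mean in a Smad3fl group was not counted, so this is a description only.

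**Figure D1:**
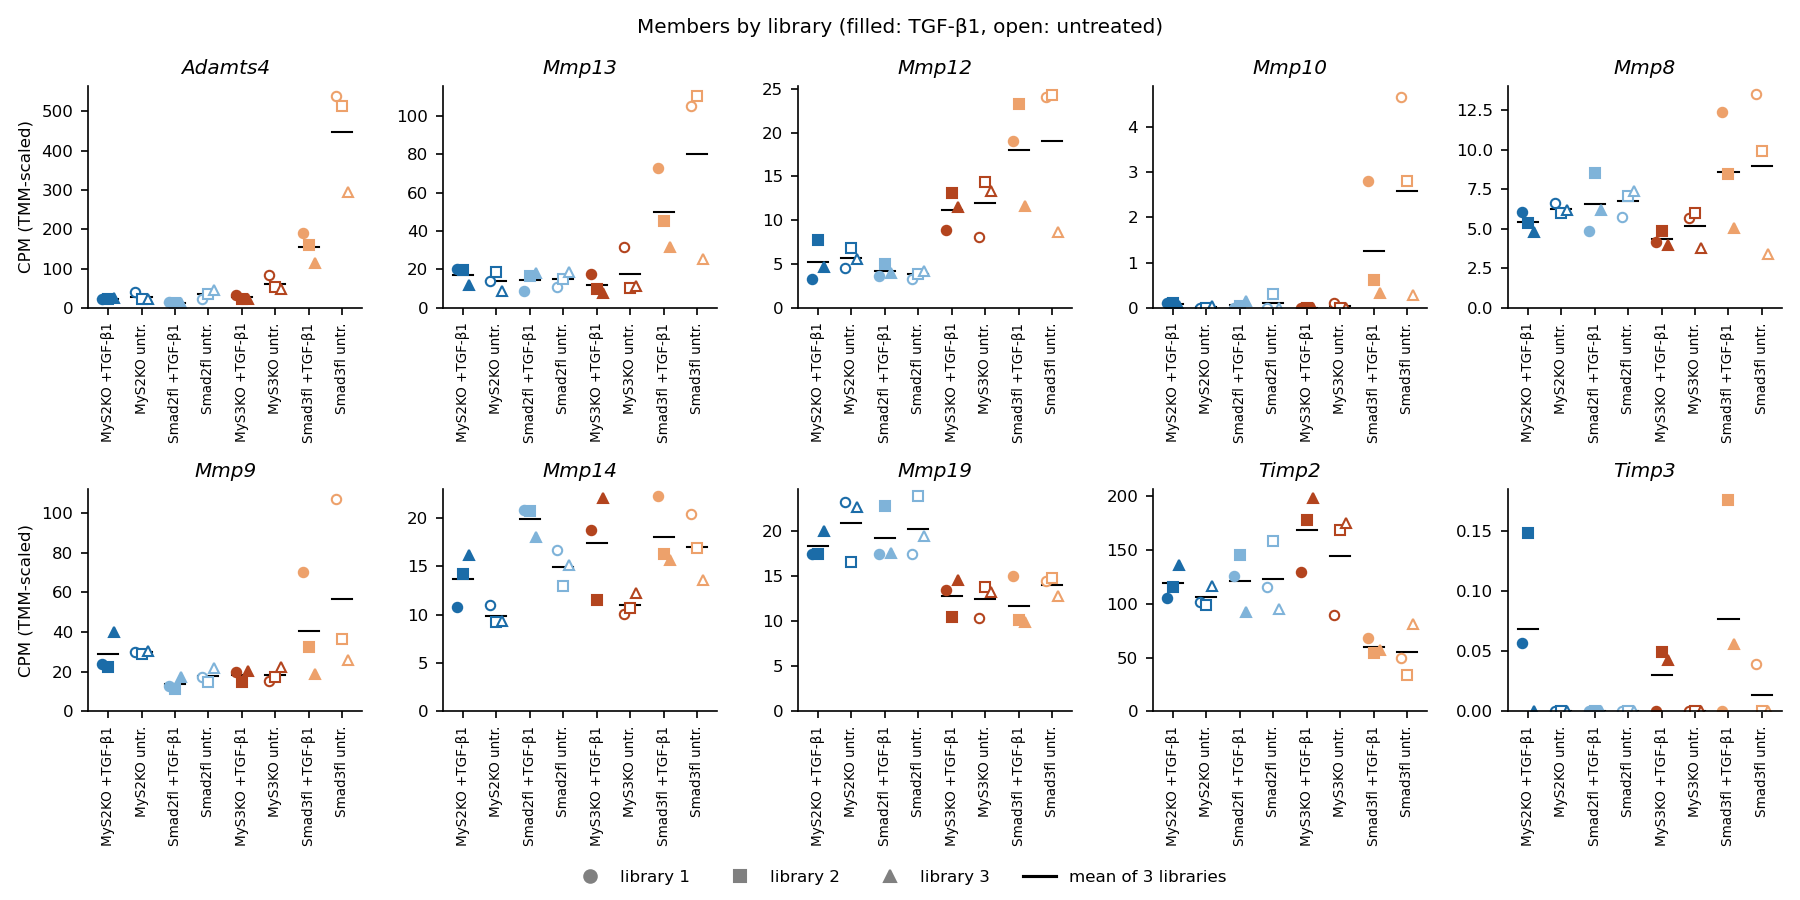
Levels of the 10 members in each library (CPM, linear axes that start at 0 and differ by panel), by group, with TGF-β1 filled and untreated open, the library number as the marker shape and a bar at the mean of 3 libraries. Adamts4 reaches 538 CPM in Smad3fl and at most 83.6 CPM in the other groups, while Timp2 is lowest in Smad3fl.

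The first comparison asks what 4 hours of TGF-β1 did to these genes in each genotype. Adamts4 was the 1 member that fell in more than 1 genotype, and no other change held in most of the alternatives tried. In edgeR's quasi-likelihood test over all genes, at an adjusted p under 0.05 (called, from here on), 0 of 9 tested members were called in the libraries labelled MyS2KO, beside 3.41% of all 14261 genes (2.9% higher and 0.505% lower). In Smad2fl 1 was called, lower, beside 11.1% of all genes (7.37% higher and 3.74% lower). In MyS3KO 2 were called, 1 higher and 1 lower, beside 10.0% (6.54% higher and 3.47% lower), and in Smad3fl 1, lower, beside 12.0% (6.38% higher and 5.64% lower). A count of 1 of 9 lies near these shares. For the libraries labelled MyS2KO, 1 member had an unadjusted p under 0.05, and DESeq2 called 0.

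Adamts4 fell to means of 12.9 CPM with TGF-β1 against 34.2 untreated in Smad2fl, a log2 change of -1.40 ± 0.29 (adjusted p = 0.00171). In MyS3KO it fell to 26.6 CPM against 61.5 untreated (-1.21 ± 0.28, adjusted p = 0.00553). In Smad3fl it fell to 155 CPM against 448 untreated (-1.53 ± 0.28, adjusted p = 0.000449). In each of these genotypes all 3 libraries with TGF-β1 lay below all 3 untreated ones, as they did for 16.1%, 10.8% and 13.1% of all genes in Smad2fl, MyS3KO and Smad3fl. Without untreated library 1 of MyS3KO, the MyS3KO change was -0.93 and no longer called (adjusted p = 0.0518). In bulk RNA, fewer cells that express a gene and less RNA per cell cannot be told apart.

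In the libraries labelled MyS2KO, Adamts4 averaged 23.9 ± 1.72 CPM with TGF-β1 and 28.9 ± 9.68 CPM untreated (SD, n = 3 each). The log2 change was -0.27 (adjusted p = 0.822), it was 0.01 without untreated library 1, and the groups overlapped. No member had groups apart in these libraries, where 10.1% of all genes lay above and 8.31% below without overlap. The difference between this response and that of Smad2fl was 1.13 ± 0.40 on the log2 scale, with an interval of 0.30 to 1.95 before adjustment for the number of genes. It was not called (adjusted p = 1.0), except with no filter on low counts (1.15, adjusted p = 0.0128). In the Smad3 line the same difference was 0.32 ± 0.39 (adjusted p = 0.815). Of all genes, 0.00701% were called in this interaction in the Smad2 line and 0.021% in the Smad3 line, and 0 of the 9 members in either. At an unadjusted p under 0.05 the members counted 1 and 0, and DESeq2 called 0 in both. Between the floxed genotypes, Smad3fl minus Smad2fl, 0.0% of genes and 0 members were called for their response, with 0 members at an unadjusted p under 0.05 and 0 by DESeq2.

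Mmp14 was the member with the nearest to a shared rise. It lay at 10.8, 14.2 and 16.1 CPM with TGF-β1 and at 11.0, 9.28 and 9.36 untreated in the libraries labelled MyS2KO, and at 20.8, 20.7 and 18 with TGF-β1 against 16.7, 13 and 15.2 untreated in Smad2fl. In MyS3KO it was at 18.8, 11.5 and 22.0 CPM with TGF-β1 and at 10.0, 10.7 and 12.2 untreated. In Smad3fl it was at 22.2, 16.2 and 15.6 CPM with TGF-β1 and at 20.4, 16.9 and 13.6 untreated. Only in Smad2fl were the treated libraries all above the untreated ones, as for 17.7% of all genes, and there the log2 change of 0.41 was not called (adjusted p = 0.241).

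The Mmp14 change was called in MyS3KO alone, at 0.67 ± 0.21 (adjusted p = 0.0495), and that call was lost in 8 of 11 alternatives. These were the fit without any of MyS3KO libraries 1 (0.60) and 3 (0.43) with TGF-β1 or 1 (0.60), 2 (0.61) and 3 (0.72) untreated, DESeq2's size factors (0.64), no filter on low counts (0.63) and a fit of the compared groups alone (0.66). The changes in the libraries labelled MyS2KO (0.48, adjusted p = 0.368) and in Smad3fl (0.09, adjusted p = 0.839) were not called, and the difference between MyS3KO and Smad3fl in this response was 0.57 ± 0.30 (adjusted p = 0.728).

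The other 6 abundant members (Mmp8, Mmp9, Mmp12, Mmp13, Mmp19 and Timp2) were not called in any genotype. For Mmp13 the log2 changes were -0.59 in MyS3KO (adjusted p = 0.554) and -0.68 in Smad3fl (adjusted p = 0.395), and with no filter on low counts both were called, at adjusted p = 0.0284 and 0.00598. Mmp10, at 82 reads over the 3 Smad3fl libraries with TGF-β1 and 185 over the 3 untreated ones, was not called either.

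**Figure D2:**
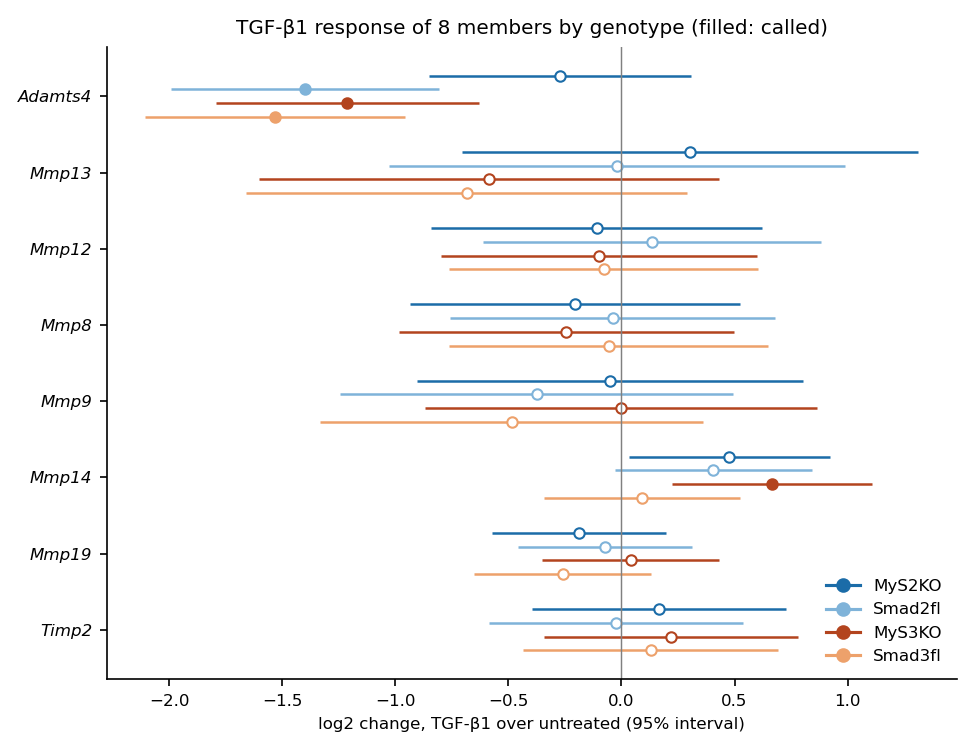
Log2 change with TGF-β1 over untreated (x axis, with 95% interval) for 8 members in the 4 genotypes, filled where called. Adamts4 lies left of 0 in Smad2fl, MyS3KO and Smad3fl, between -1.53 and -1.21, and at -0.27 in MyS2KO. Mmp10 and Timp3 are left out for their low counts.

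The second comparison sets MyS3KO against Smad3fl and asks which protease genes differ where Smad3 was targeted. Adamts4 and the collagenase gene Mmp13 were lower in MyS3KO and the inhibitor gene Timp2 was higher, both with and without TGF-β1. Mmp9 was called lower in both treatments too, but neither call held without Smad3fl library 1. Mmp10 is left out of the counts that follow, because only its Smad3fl reads brought it into the test. With TGF-β1, 5 of the other 8 tested members were called, 4 lower and 1 higher, beside 28.2% of all genes (13.2% lower and 15.0% higher). Untreated, 5 were called, 4 lower and 1 higher, beside 17.7% of all genes (9.38% lower and 8.37% higher). The untreated count rests on a spread shared by all 8 groups, and in a fit of the 6 compared libraries alone it fell to 1, Adamts4. Groups lay apart for 4 members in each treatment: Adamts4, Mmp8 and Mmp13 below and Timp2 above with TGF-β1 (23.3% of all genes below and 23.1% above), and Adamts4, Mmp9 and Mmp14 below and Timp2 above untreated (14.9% below and 10.8% above).

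Adamts4 fell to 26.6 ± 5.9 CPM in MyS3KO against 155 ± 38.1 in Smad3fl with TGF-β1 (log2 -2.55 ± 0.29, adjusted p = 7.03e-06). Untreated, it fell to 61.5 ± 19.5 CPM in MyS3KO against 448 ± 134 in Smad3fl (-2.87 ± 0.29, adjusted p = 2.24e-06, SD, n = 3 each, by edgeR). The groups did not overlap in either treatment, and the call held in all 12 alternatives of each.

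Mmp13 was at 17.8, 9.97 and 7.84 CPM in MyS3KO and at 72.7, 45.4 and 31.7 in Smad3fl with TGF-β1, with no overlap (-2.08 ± 0.50, adjusted p = 0.00454). Untreated, it was at 31.8, 10.2 and 11.4 CPM in MyS3KO and at 105, 110 and 25.3 in Smad3fl, which overlap (-2.18 ± 0.49, adjusted p = 0.00405). The untreated call was lost in the fit of the compared groups alone (-2.13, adjusted p = 0.0969), and without MyS3KO library 1 the change was -2.89 and was called.

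Mmp10 had 0 reads over the 3 MyS3KO libraries with TGF-β1, against 82 in Smad3fl. Were 3 reads present over those MyS3KO libraries, it would be at least 26.1-fold lower. Untreated, Mmp10 had 2 reads in MyS3KO and 185 in Smad3fl, a ratio of 78.8-fold lower with an exact 95% counting interval of 21.5 to 656 that leaves out the spread between libraries. These counts are a description, with no test. Most of its Smad3fl reads lay in libraries 1 and 2.

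Mmp9 was at 19.9, 14.6 and 20.5 CPM in MyS3KO and at 70.2, 32.4 and 18.8 in Smad3fl with TGF-β1 (-1.14, adjusted p = 0.0449). Untreated, it was at 15.1, 17.4 and 22.6 CPM in MyS3KO and at 107, 36.8 and 26.2 in Smad3fl (-1.63, adjusted p = 0.0101). Smad3fl library 1 carried much of both differences. Without it the change was -0.46 with TGF-β1 (adjusted p = 0.431) and -0.76 untreated (adjusted p = 0.184), and neither was called. With TGF-β1 the call was also lost without MyS3KO library 1 (-1.19), 2 (-1.01) or 3 (-1.23), without Smad3fl library 2 (-1.28) and in the fit of the compared groups alone (-1.15), which ended the untreated call too (-1.57, adjusted p = 0.114).

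Mmp8 was at 4.17, 4.86 and 4.01 CPM in MyS3KO, below the 12.4, 8.45 and 5.04 CPM of Smad3fl with TGF-β1 (-0.99, adjusted p = 0.0399). That call was lost without MyS3KO library 1 (-0.95), 2 (-1.08) or 3 (-0.93) or Smad3fl library 1 (-0.61) or 2 (-1.01). Untreated, Mmp8 was at 5.66, 6.02 and 3.79 CPM in MyS3KO and at 13.5, 9.95 and 3.43 in Smad3fl, which overlap, and the change of -0.80 was not called (adjusted p = 0.116). Mmp8 and Mmp9 are also genes of neutrophils, and Mmp9 and Mmp13 of osteoclasts. With TGF-β1 the 12 neutrophil markers summed to 16.6 to 20 CPM in MyS3KO and 4.14 to 21.7 CPM in Smad3fl, with Ly6g and Retnlg at 0 in both. Untreated they summed to 14 to 23.1 CPM in MyS3KO, where Ly6g and Retnlg were at 0, and 3.43 to 20.1 CPM in Smad3fl, where all had reads. The 7 osteoclast markers, Calcr at 0 in all 4 groups and Ocstamp in MyS3KO with TGF-β1, summed to 73.6 to 91.2 CPM in MyS3KO and 66.0 to 89.9 CPM in Smad3fl with TGF-β1, and to 70.8 to 101 CPM in MyS3KO and 80.2 to 100 CPM in Smad3fl untreated. The part of these markers in the result was not tested.

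Mmp12 showed how far library 3 of Smad3fl matters. With TGF-β1 it was at 8.89, 13.1 and 11.6 CPM in MyS3KO and at 19.0, 23.2 and 11.6 in Smad3fl (-0.68, adjusted p = 0.129). Untreated it was at 8.11, 14.4 and 13.4 CPM in MyS3KO and at 24.1, 24.3 and 8.64 in Smad3fl (-0.66, adjusted p = 0.176). Neither was called, but without both Smad3fl libraries numbered 3 the changes were -0.92 (adjusted p = 0.0186) and -0.99 (adjusted p = 0.0124). Mmp8 untreated was called then too (-1.17, adjusted p = 0.00165). This setting was chosen after the levels were seen. With no filter on low counts, Mmp12 with TGF-β1 (-0.69, adjusted p = 0.024) and Mmp8 untreated (-0.78, adjusted p = 0.0349) were called as well. Without untreated Smad3fl library 3 alone, Mmp8 (-1.18, adjusted p = 0.00484) and Mmp12 (-1.0, adjusted p = 0.0175) were called untreated.

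Mmp14 was called untreated, at 10.0, 10.7 and 12.2 CPM in MyS3KO against 20.4, 16.9 and 13.6 in Smad3fl (-0.63, adjusted p = 0.0444). It was lost without MyS3KO library 1 (-0.56), 2 (-0.59) or 3 (-0.70), without Smad3fl library 1 (-0.46) or 2 (-0.63), in the fit of the compared groups alone (-0.57), and with the replicate number as a block (-0.61, adjusted p = 0.0558). With TGF-β1 its difference was -0.05 (adjusted p = 0.88). Mmp19 was not called in either treatment.

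Timp2 rose to 129, 177 and 198 CPM in MyS3KO against 68.5, 54.3 and 57.1 in Smad3fl with TGF-β1 (1.49 ± 0.28, adjusted p = 0.000739). Untreated, it rose to 89.5, 168 and 175 CPM in MyS3KO against 49.2, 33.8 and 81.6 in Smad3fl (1.40 ± 0.28, adjusted p = 0.00142). The groups did not overlap in either treatment. The call with TGF-β1 held in all 12 alternatives, and the untreated call was lost only in the fit of the compared groups alone (1.46, adjusted p = 0.0693). Timp3 had 2 reads in MyS3KO and 5 in Smad3fl with TGF-β1, and 0 and 1 untreated, which is too few to compare.

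**Figure D3:**
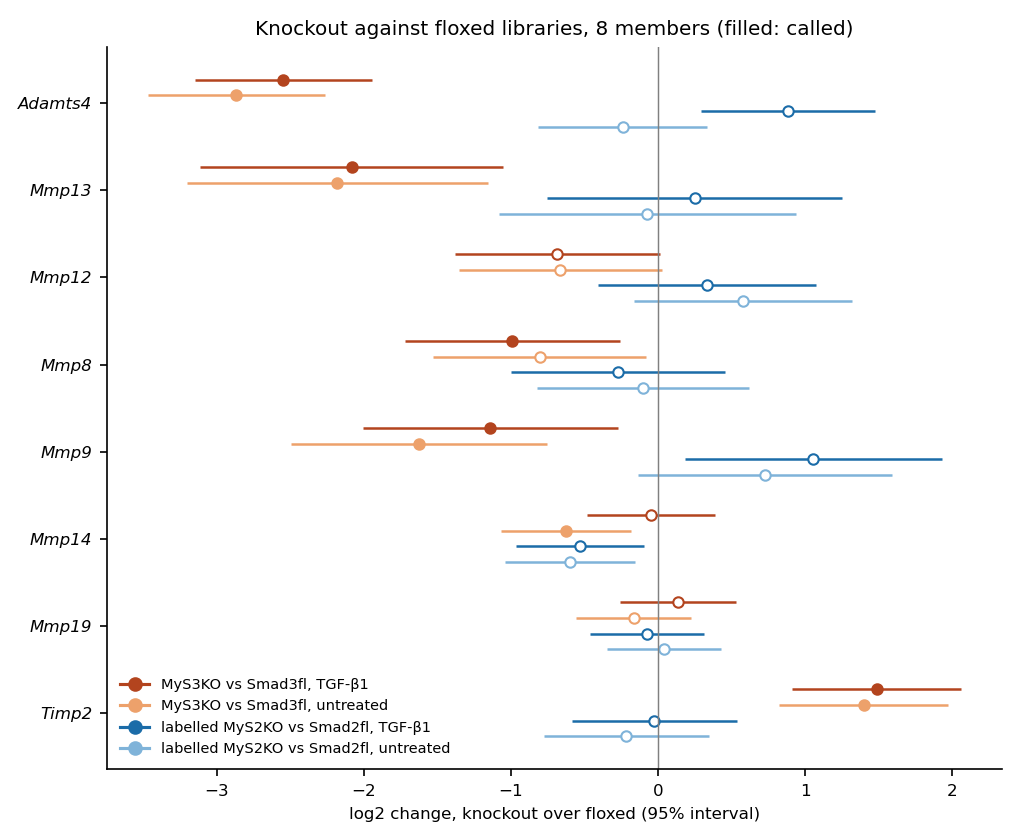
Log2 difference between knockout and floxed libraries (x axis, with 95% interval) for 8 members, in the Smad3 line (red with TGF-β1, orange untreated) and in the libraries labelled MyS2KO (dark blue with TGF-β1, light blue untreated), filled where called. In the Smad3 line Adamts4 lies at -2.55 and -2.87 and Timp2 at 1.49 and 1.40. Mmp10 and Timp3 are left out for their low counts.

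The third comparison sets the libraries labelled MyS2KO against Smad2fl. No member was called, beside 0.421% of all genes with TGF-β1 (0.189% higher and 0.231% lower) and 0.0701% untreated (0.0351% higher and 0.0351% lower). Groups lay apart for 3 members in each treatment: Adamts4 and Mmp9 above and Mmp14 below with TGF-β1 (9.4% of all genes above and 10.0% below), and Mmp9 and Mmp12 above and Mmp14 below untreated (7.31% above and 7.93% below). At an unadjusted p under 0.05 there were 3 members with TGF-β1 and 1 untreated, and DESeq2 called 0 in both. Adamts4 with TGF-β1 was at 22.6, 23.2 and 25.8 CPM in the libraries labelled MyS2KO, all above the 13.9, 11.3 and 13.6 CPM of Smad2fl (log2 0.89 ± 0.29, adjusted p = 0.222). Untreated, its difference was -0.24 (adjusted p = 0.861) and the groups overlapped.

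Mmp9 was at 24.1, 22.3 and 40.2 CPM in the libraries labelled MyS2KO, all above the 13, 11.5 and 17.2 CPM of Smad2fl with TGF-β1 (1.06, adjusted p = 0.379). Untreated, it was at 30.1, 29.2 and 30.4 CPM against 17.5, 14.7 and 21.9 in Smad2fl (0.73, adjusted p = 0.655). Adamts4 and Mmp9 with TGF-β1 were called with no filter on low counts (adjusted p = 0.000312 and 4.49e-05) and in the fit of the compared groups alone (adjusted p = 0.0102 and 0.0226), and Mmp9 untreated with no filter (adjusted p = 0.0418). The neutrophil markers summed to 5.2 to 7.53 CPM in the libraries labelled MyS2KO and 1.15 to 3.39 CPM in Smad2fl with TGF-β1, where Elane, Camp and Retnlg were at 0. Untreated they summed to 6.76 to 11.2 CPM with Ly6g at 0, against 1.43 to 3.42 CPM in Smad2fl with Retnlg at 0. Their part in the Mmp9 values was not tested. Mmp14 lay below Smad2fl in every library labelled MyS2KO, by -0.53 with TGF-β1 (adjusted p = 0.379) and -0.60 untreated (adjusted p = 0.381).

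Whether the knockout differences themselves differed between the lines was tested as the Smad3 line's minus the Smad2 line's, a test added after the data had been seen. Mmp10 was called in neither treatment and is left out here too, because only its Smad3fl reads brought it into the test. With TGF-β1, 4 of the other 8 tested members were called, beside 7.09% of all genes (3.83% higher and 3.26% lower): Adamts4 (-3.43 ± 0.40, adjusted p = 6.02e-05), Mmp9 (-2.20 ± 0.59, adjusted p = 0.0302), Mmp13 (-2.33 ± 0.69, adjusted p = 0.0428) and Timp2 (1.51 ± 0.39, adjusted p = 0.0223). Untreated, 3 were called, beside 4.93% of all genes (2.09% higher and 2.84% lower): Adamts4 (-2.62 ± 0.39, adjusted p = 0.000741), Mmp9 (-2.36 ± 0.59, adjusted p = 0.0242) and Timp2 (1.61 ± 0.39, adjusted p = 0.0195). Adamts4 was called in all 18 alternatives of both treatments. For the other members single libraries ended the call, as given further on.

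The floxed controls of the lines differed before any knockout. Untreated Smad3fl against untreated Smad2fl had 6 of 8 tested members called, 4 higher and 2 lower, with Mmp10 left out for the same reason, beside 33.4% of all genes (17.7% higher and 15.6% lower). Groups lay apart for Adamts4, Mmp9, Mmp12 and Mmp13 above and for Mmp19 and Timp2 below, as for 20.1% and 18.3% of all genes. The 7 osteoclast markers, Calcr at 0 in both groups, summed to 80.2 to 100 CPM in Smad3fl and 61.7 to 66.1 CPM in Smad2fl. The 12 neutrophil markers summed to 3.43 to 20.1 CPM in Smad3fl, where all had reads, and 1.43 to 3.42 CPM in Smad2fl, where Retnlg was at 0. Neither sum overlapped, and the part of these markers in the Mmp9 and Mmp13 values was not tested. Adamts4 was higher in Smad3fl by 3.72 ± 0.30 on the log2 scale (adjusted p = 2.11e-08), Mmp13 by 2.44 ± 0.50 (adjusted p = 0.000947) and Mmp12 by 2.32 ± 0.36 (adjusted p = 6.44e-05). Mmp10 had 185 reads in Smad3fl and 6 in Smad2fl, all 6 of them in library 2, which is given with no test. Mmp9 was higher by 1.65 ± 0.42 (adjusted p = 0.00504), a call lost without Smad3fl library 1 (0.78, adjusted p = 0.119).

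Timp2 was lower in Smad3fl, by -1.16 ± 0.28 (adjusted p = 0.00298), and Mmp19 by -0.53 ± 0.19 (adjusted p = 0.0325). The Mmp19 call was lost without untreated Smad2fl library 2 (-0.40) or 3 (-0.57), without untreated Smad3fl library 1 (-0.58), 2 (-0.58) or 3 (-0.47), without both numbered 3 (-0.50) and in the fit of the compared groups alone (-0.55). This comparison and the untreated MyS3KO comparison share the 3 untreated Smad3fl libraries. Side by side, Adamts4 averaged 61.5 CPM in MyS3KO, 448 in Smad3fl and 34.2 in Smad2fl, and Timp2 averaged 144, 54.8 and 123 CPM in the same order, so MyS3KO lay nearer to Smad2fl than to Smad3fl for both. Genotype, line and culture cannot be told apart in it.

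Levels of different genes were set beside each other as FPKM (fragments per kilobase per 1e6 reads), the deposited unit that takes the gene's length into account. The summed FPKM of the 8 proteases was 50.6, 46.8 and 59.8 in MyS3KO and 194, 124 and 82.9 in Smad3fl with TGF-β1. Untreated, it was 57.0, 56.6 and 59.3 in MyS3KO and 328, 235 and 112 in Smad3fl. The Smad2 line lay between 45.0 and 62.5. Adamts4 made up 27.4% to 57.7% of that sum in Smad3fl and 5.43% to 32% in the other genotypes.

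Divided by the summed FPKM of Timp2 and Timp3, nearly all of it Timp2, the protease sum was 0.966, 0.532 and 0.614 in MyS3KO and 5.40, 4.56 and 3.03 in Smad3fl with TGF-β1. Untreated, the ratio was 1.54, 0.718 and 0.716 in MyS3KO and 13.2, 15.1 and 3.31 in Smad3fl. It was 1.06 to 1.36 in the libraries labelled MyS2KO and 0.719 to 1.41 in Smad2fl. All 6 Smad3fl libraries were above the other 18. The ratio describes transcripts, not enzyme and inhibitor, and was not tested.

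**Figure D4:**
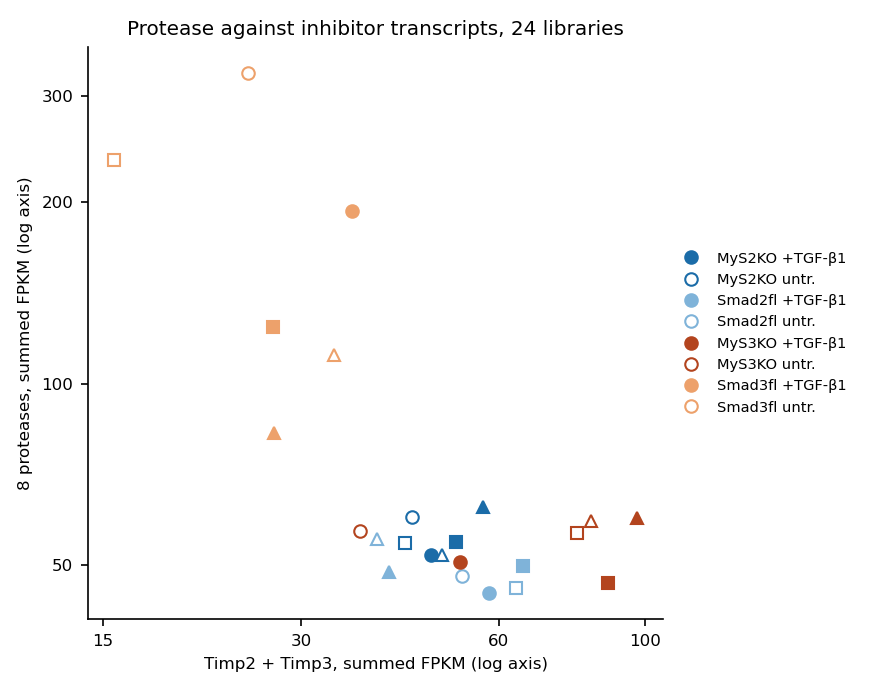
Summed FPKM of the 8 protease genes (y axis, log) against that of Timp2 and Timp3 (x axis, log) in each of 24 libraries, with TGF-β1 filled and untreated open, the library number as the marker shape (circle 1, square 2, triangle 3). Smad3fl libraries lie at 82.9 to 328 protease FPKM with 15.6 to 35.9 inhibitor FPKM, and the others at 45.0 to 62.5 with 36.9 to 97.4.

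Other genes of the system were followed from 7 lists. Median log2 changes over all genes were between -0.03 and 0.01 in the comparisons of TGF-β1 and of the knockouts. Shares of all genes called with TGF-β1 were 2.9% higher and 0.505% lower in the libraries labelled MyS2KO, and 7.37% and 3.74% in Smad2fl. In MyS3KO they were 6.54% and 3.47%, and in Smad3fl 6.38% and 5.64%. For MyS3KO against Smad3fl the shares were 15.0% higher and 13.2% lower with TGF-β1, and 8.37% and 9.38% untreated. The list counts below were not tested against these shares. In the libraries labelled MyS2KO against Smad2fl the lists held 2 calls, 1 matrix substrate higher with TGF-β1 and the ETS factor gene Etv5 lower untreated (-0.83 ± 0.14, adjusted p = 0.0193). There 0.421% of all genes were called with TGF-β1 and 0.0701% untreated. Of 16 other Mmp genes 4 were tested (Mmp2, Mmp25, Mmp27 and Mmp28), the remaining 12 having at most 17 reads in a library. With TGF-β1, 1 was called higher in Smad2fl and none in the other genotypes, or 2 in Smad3fl with the replicate number as a block. In MyS3KO against Smad3fl 1 was called higher in each treatment and none lower, with a median log2 difference of 0.18 over the 4 with TGF-β1 (0.01 over all genes) and 0.39 untreated (-0.03 over all genes). It was Mmp28, named after its values were seen, which encodes epilysin: its mean was 0.563 CPM in MyS3KO and 0.048 in Smad3fl with TGF-β1, and 0.81 CPM in MyS3KO and 0.136 in Smad3fl untreated (3.37 ± 0.81, adjusted p = 0.00485, and 2.56 ± 0.66, adjusted p = 0.00987). Of 7 other inhibitors, Timp1 among them, none passed the filter, and Timp1 had at most 11 reads in a library.

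Of 18 other Adamts genes 4 were tested. Adamts10, which is known for fibrillin microfibrils, rose with TGF-β1 by 1.59 ± 0.25 in Smad2fl (adjusted p = 7.3e-05), 1.05 ± 0.24 in MyS3KO (adjusted p = 0.00578) and 1.44 ± 0.26 in Smad3fl (adjusted p = 0.000412), where Adamts4 fell. In the libraries labelled MyS2KO its change was 0.76 (adjusted p = 0.112) and none of the 4 was called, or 1 with the replicate number as a block. In MyS3KO against Smad3fl, 1 of the 4 was higher and 2 lower with TGF-β1, and 1 higher and 1 lower untreated. Adamts10 was the higher one, by 0.84 ± 0.24 with TGF-β1 (adjusted p = 0.0138) and 1.23 ± 0.26 untreated (adjusted p = 0.00235).

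Among the genes of protease activation and the furin family, 9 of 12 were tested. With TGF-β1, 2 were higher and none lower in the libraries labelled MyS2KO, 4 higher and 2 lower in Smad2fl, 5 higher and none lower in MyS3KO, and 5 higher and 2 lower in Smad3fl, with medians of 0.35, 0.75, 1.70 and 1.07. In MyS3KO against Smad3fl, 4 were higher and 2 lower with TGF-β1 (median 0.45) and 3 higher and 2 lower untreated (median 0.46). Furin, the convertase that cuts pro-MMP14, rose by 1.23 to 1.80 in all 4 genotypes (adjusted p of 2.64e-08 to 1.33e-05).

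Plau, the plasminogen activator urokinase, rose by 0.86 ± 0.23 in Smad2fl (adjusted p = 0.0145), by 1.70 ± 0.24 in MyS3KO (adjusted p = 2.22e-05) and by 2.20 ± 0.24 in Smad3fl (adjusted p = 1.03e-06). Its receptor gene Plaur rose in the same 3 genotypes, by 1.57, 1.93 and 1.07. In the libraries labelled MyS2KO the changes of Plau (0.35, adjusted p = 0.654) and Plaur (0.93, adjusted p = 0.143) were not called. In MyS3KO against Smad3fl, Plaur fell by 1.11 ± 0.30 with TGF-β1 (adjusted p = 0.00993) and by 1.97 ± 0.32 untreated (adjusted p = 0.000304). The hepsin gene Hpn, a membrane serine protease, fell there too, by 0.69 and 1.24.

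A list of 16 other genes of matrix breakdown, all tested, held lysosomal cathepsins, ADAM sheddases, the sugar-cleaving enzymes heparanase and hyaluronidases, and the cathepsin inhibitor gene Cst3. With TGF-β1 none was called in the libraries labelled MyS2KO, 2 were higher in Smad2fl, 1 in MyS3KO and 2 in Smad3fl, and none was lower. With the replicate number as a block, the calls were 1 for the labelled MyS2KO and 6 for Smad3fl. In MyS3KO against Smad3fl, 8 were higher and 3 lower with TGF-β1 (median 0.25), beside 15.0% and 13.2% of all genes. Untreated, 6 were higher and 2 lower (median 0.14), beside 8.37% and 9.38%. Among the higher ones, named after their values were seen, was the cathepsin D gene Ctsd, by 1.80 ± 0.24 with TGF-β1 (adjusted p = 3.68e-05) and 1.51 ± 0.24 untreated (adjusted p = 0.000188). Ctsb, the cathepsin B gene, was higher by 0.99 with TGF-β1 and 0.73 untreated, and Ctss, the cathepsin S gene, by 0.57 in both. Other genes of the list went the other way, as counted above, so these 3 do not stand for it. The hyaluronidase gene Hyal1 averaged 44.6 CPM in MyS3KO and 72.8 in Smad3fl with TGF-β1, and 39.9 and 82.8 untreated. Of 16 matrix substrates 9 were tested. With TGF-β1, 1 was higher and 1 lower in Smad3fl, 1 was lower in MyS3KO, and none was called in Smad2fl or the libraries labelled MyS2KO, while 3 were higher with TGF-β1 and 2 untreated in MyS3KO against Smad3fl, with none lower (medians -0.43 and 0.49).

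Of the 14 AP-1, ETS and RUNX factors that bind Mmp promoters, 13 were tested. In MyS3KO against Smad3fl none was higher, and 5 were lower with TGF-β1 (median -0.30) and 7 untreated (median -0.63), beside 13.2% and 9.38% of all genes. These counts take in Fosl1, which is described below with no test. With TGF-β1 it had 15 reads in MyS3KO and 96 in Smad3fl, and untreated 13 and 152. Fos was lower by -0.66 ± 0.19 with TGF-β1 (adjusted p = 0.0161) and by -0.93 ± 0.20 untreated (adjusted p = 0.00237). Ets1, a lymphoid and endothelial ETS factor, was lower by -0.99 ± 0.14 (adjusted p = 8.69e-05) and -0.92 ± 0.14 (adjusted p = 0.000156), and Runx1, a blood cell factor, by -1.06 ± 0.14 (adjusted p = 4.82e-05) and -0.63 ± 0.14 (adjusted p = 0.00469). Etv5 was lower untreated (-0.72, adjusted p = 0.0015).

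The AP-1 gene Fosl1, named after its values were seen, had few reads. It averaged 0.271 CPM in MyS3KO and 1.47 ± 1.48 in Smad3fl with TGF-β1. Untreated it averaged 0.236 CPM in MyS3KO and 2.13 ± 1.6 in Smad3fl, given here with no test. Its Smad3fl libraries were in the order of Mmp10, with library 3 the lowest.

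With TGF-β1, 2 of these factors were higher and 1 lower in the libraries labelled MyS2KO, 3 and 3 in Smad2fl, 3 and 3 in MyS3KO, and 3 and 5 in Smad3fl. With the replicate number as a block, 6 in all were called in the libraries labelled MyS2KO. Fos rose in all 4 genotypes, by 1.45 to 2.06, and Jun fell in all 4, by -1.43 in Smad2fl, -0.77 in the libraries labelled MyS2KO and -0.69 in both MyS3KO and Smad3fl. Runx2, the osteoblast factor that also binds the Mmp13 promoter, rose in all 4 by 1.14 to 2.19, while Mmp13 was called in none. Partners of AP-1 thus moved in opposite directions with TGF-β1.

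Around the chromosome 9 cluster, 1 of the 6 tested genes that are not members was called between MyS3KO and Smad3fl. Of all genes, 28.2% were called in this comparison with TGF-β1 and 17.7% untreated, so 1 of 6 is no more than the general share. Mmp27, inside the cluster, differed by -0.13 with TGF-β1 and by -0.44 untreated and was not called. The flanking genes Dync2h1, Dcun1d5, Tmem123 and Birc2 were not called in either treatment. Birc3, an inhibitor of apoptosis at the far side, was lower, by -0.57 ± 0.17 with TGF-β1 (adjusted p = 0.0198) and by -0.77 ± 0.18 untreated (adjusted p = 0.00402). Mmp1b, Mmp20 and Mmp7 had 0, 0 and 1 read in all.

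**Figure D5:**
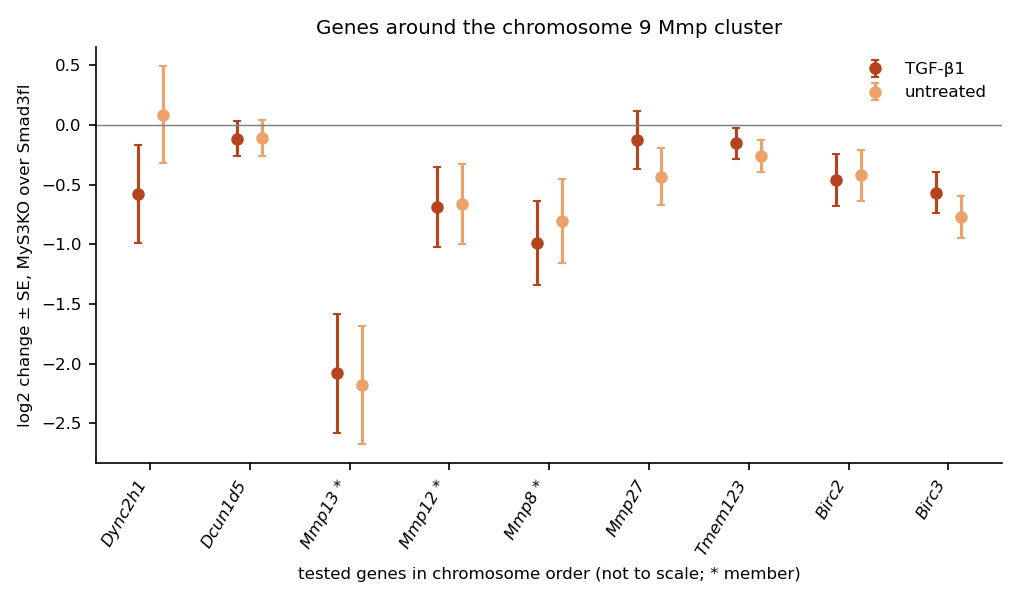
Log2 difference between MyS3KO and Smad3fl (y axis, ± SE) for the tested genes of the chromosome 9 cluster and within 500 kb of it, in chromosome order but not to scale, with TGF-β1 in red and untreated in orange. Mmp13 lies at -2.08 and -2.18, the genes on either side of the cluster between -0.77 and 0.09. Mmp10 is left out because MyS3KO held 0 and 2 reads of it.

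The genes whose levels most resembled those of Adamts4 over the 24 libraries, by Pearson r of log2 CPM, were Iars (r = 0.975), which encodes an aminoacyl-tRNA synthetase, and Nxpe3 (r = 0.968). The libraries share depth, scaling and groups, so r is a description. Iars averaged 81.4 CPM with TGF-β1 and 94.8 untreated in MyS3KO, against 117 with TGF-β1 and 169.5 untreated in Smad3fl. It averaged 73.7 and 81.8 CPM in the libraries labelled MyS2KO, against 69.9 and 87.4 in Smad2fl. Nxpe3 averaged 7.35 CPM with TGF-β1 and 10.2 untreated in MyS3KO, against 28.5 and 47.7 in Smad3fl, and 6.92 and 9.11 CPM in the libraries labelled MyS2KO, against 5.91 and 8.22 in Smad2fl. For both genes the Smad3fl groups had the highest means, as for Adamts4.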

How the data were processed

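The authors deposited raw read counts per Ensembl gene and FPKM values in 24 columns, and the FPKM are the same counts divided by library total and gene length. The submitters' processing notes name mm10 and GRCm38.p6 as builds and list the tools Cufflinks 2.1.1, HTSeq 0.6.1 and TopHat2 2.0.9. What each did is not given in the sources used here, nor is the strand setting. Sequencing gave 150-base read pairs, per the labels' protocols. Counts were scaled by TMM, filtered with filterByExpr on 8 groups and fitted with edgeR 4.0.16 in R 4.3.3 (1 model of 24 libraries, a mean per group, quasi-likelihood test). The Benjamini-Hochberg method adjusted p over 14261 genes within each of 14 comparisons and called under 0.05. The fit had 16 residual and 6.1 prior degrees of freedom and a median biological coefficient of variation of 21.2%. Values after ± are standard errors for log2 differences and SD for levels. Counting intervals cover counting error only.

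Alternatives were DESeq2 1.42.0 (size factors, and its own test), no filter on low counts, the compared groups alone, the replicate number as a block, and each library left out in turn. Libraries with the same number deviated together (every correlation over 0.1) only between TGF-β1 and untreated libraries of the labelled MyS2KO (0.12, 0.18 and 0.33) and of Smad3fl (0.39, 0.31 and 0.29). Libraries of different numbers reached 0.16 in the labelled MyS2KO and -0.09 in Smad3fl. The fit here has no block, and no 2 libraries held identical counts.

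Members and lists were chosen with earlier results of these data known. Named were all 10 members, Smad2, Smad3, Lyz2, and up to 12 of the 37 listed genes called in at least 3 of the TGF-β1 comparisons or in any knockout comparison. The 12 were ordered by the number of comparisons called and then by summed size, an order set after the values were seen, and Fosl1, Mmp28, Timp1, Ctsb, Ctsd and Ctss were added then. Of the 12, 1 is not reported here. For likeness, the 2 genes nearest to a member called in at least 2 TGF-β1 comparisons were named. Promoter windows of 250 bases came from RefSeq. The dendritic cell, endothelial, lymphocyte, and mast cell and basophil markers summed to 14.3 to 40.4, 32.5 to 168, 0.352 to 4.08, and 0 to 0.45 CPM over libraries, and mitochondrial transcripts took 0.637% to 1.14% of reads.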

Additional observations from a re-analysis of the deposited data

Results flagged for a closer look

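The knockout difference of 4 members differed between the lines (Smad3 line minus Smad2 line, log2, edgeR quasi-likelihood test over all genes, added after the data had been seen). Adamts4 differed by -3.43 with TGF-β1 and -2.62 untreated, with adjusted p between 3.18e-38 and 0.00051 and between 3.4e-22 and 0.0222 over the alternatives. In each treatment all 3 MyS3KO libraries lay below all 3 Smad3fl libraries.

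Mmp9 differed by -2.20 with TGF-β1 and -2.36 untreated. With TGF-β1 the call was lost without library 1 (-2.32) or 3 (-1.88) labelled MyS2KO, Smad2fl 1 (-2.15) or 2 (-2.08), MyS3KO 2 (-2.07) or 3 (-2.29), or Smad3fl 1 (-1.49). Untreated it was lost without library 1 labelled MyS2KO (-2.28), Smad2fl 1 (-2.28) or 2 (-2.23), MyS3KO 2 (-2.28) or 3 (-2.50), or Smad3fl 1 (-1.47), and in the fit of the compared groups alone (-2.32). Adjusted p reached 0.107 and 0.106.

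Mmp13 differed by -2.33 with TGF-β1. The call was lost without library 1 (-2.22) or 2 (-2.22) labelled MyS2KO, Smad2fl 1 (-2.08), 2 (-2.43) or 3 (-2.52), MyS3KO 2 (-2.23) or 3 (-2.10), or Smad3fl 1 (-1.90) or 2 (-2.40), at adjusted p up to 0.119.

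Timp2 differed by 1.51 with TGF-β1 and 1.61 untreated. With TGF-β1 the call was lost without library 1 (1.42) or 2 (1.5) labelled MyS2KO, Smad2fl 1 (1.48) or 2 (1.37), MyS3KO 2 (1.46) or 3 (1.38), or Smad3fl 2 (1.44). Untreated it was lost without Smad2fl 2 (1.39), MyS3KO 2 (1.52) or 3 (1.48), or Smad3fl 2 (1.39), and in the fit of the compared groups alone (1.64). Adjusted p reached 0.0723 and 0.0949.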

How the results depend on the processing

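Of values called at the start, 163 kept their call under an alternative that leaves out no single library and 14 lost it, and with 1 library left out 161 kept it and 61 lost it. Of values not called, 13 and 2 gained one. The number of members called, here with Mmp10 where it was called, changed by over 1.5 times as follows, and the causes were not tested. With TGF-β1 in MyS3KO it was 1 with DESeq2's size factors and with the compared groups alone, against 2. With no filter on low counts it was 2 with TGF-β1 in Smad3fl, 1 for the interaction in the Smad2 line, 2 with TGF-β1 and 1 untreated for the labelled MyS2KO against Smad2fl, and 5 for the untreated difference between lines. With the compared groups alone it was 2 for the labelled MyS2KO against Smad2fl with TGF-β1, 1 for MyS3KO against Smad3fl untreated and 1 for the untreated difference between lines, which was 6 without both Smad3fl libraries numbered 3. Smaller changes were, for MyS3KO against Smad3fl at 6 in each treatment, 7 with no filter in each, 5 with the compared groups alone with TGF-β1, and 7 with TGF-β1 and 8 untreated without both libraries numbered 3. Between floxed lines the count was 6 with the compared groups alone, against 7. For the difference between lines with TGF-β1, at 4, it was 5 with the compared groups alone and with DESeq2's test and 6 with no filter and without both libraries numbered 3.

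With 1 library left out, the counts ranged from 4 to 6 with TGF-β1 and 4 to 8 untreated for MyS3KO against Smad3fl, 5 to 7 between floxed lines, 0 to 2 for TGF-β1 in MyS3KO, and 1 to 4 with TGF-β1 and 1 to 5 untreated for the difference between lines. They stayed at 1 for TGF-β1 in Smad2fl and in Smad3fl and at 0 in the other comparisons. Changes of sign came only from uncalled values: Adamts4 with TGF-β1 (-0.41 to 0.01) and untreated against Smad2fl (-0.56 to 0.0) in the labelled MyS2KO, Mmp14 with TGF-β1 in Smad3fl (-0.08 to 0.23) and in MyS3KO against Smad3fl with TGF-β1 (-0.26 to 0.17), and Mmp13 with TGF-β1 in MyS3KO (-1.0 to 0.13). The replicate block lost Mmp14 in untreated MyS3KO against Smad3fl, leaving 5 members called, and changed no other member's call. In Smad2fl the block raised the calls with TGF-β1 to 11 AP-1, ETS and RUNX factors and 8 genes of matrix breakdown. Libraries of the same number correlated there at 0.05, 0.1 and 0.12, and those of different numbers at 0.02 at most. Depth limits Mmp10 and Timp3.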
